A study of Homo sapiens with 6 samples.

Results

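Amino acid catabolism is a main task of the liver, and 8 genes that encode enzymes of these pathways were examined for peaks of the isolated UHRF1 tandem Tudor domain (TTD) on chromatin of HepG2 cells. The 8 genes are TAT, HPD, HGD, FAH, TDO2, HAL, SDS and AGXT. The rule for the set names these genes by their function and uses no TTD value, although it was drawn up with earlier results of these data known. The set comprises 8 of the 20033 protein-coding genes that were placed on hg38 with GENCODE release 44. Each gene was described by the TTD peaks in its gene body, in the 5 kb window around its transcription start site (TSS, 2.5 kb on each side) and within 100 kb on each side of the TSS. Cover is the percent of such a window that lies in TTD peaks.

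HepG2 is an established cell line from a human hepatoblastoma, a liver tumour, and was left untreated in all groups. GST-tagged TTD, used in CIDOP in place of an antibody, captured native mononucleosomes from these cells, and H3K9me2 ChIP and input libraries were prepared as well, with 2 biological replicates in each of the 3 groups. The values below come from 1 list of 31569 TTD peaks that the authors called on the mean signal of both TTD replicates. The list has no score, no replicate and no control column, so the spread between replicates cannot be stated. Every count is a description without a test, and a lack of peaks holds only for the cutoff used by the authors. The study states a minimum number of reads for the libraries, but the depth behind a peak is not given in the list. Expression of the genes was not analysed here.

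UHRF1 couples histone methylation to the maintenance of DNA methylation. Its TTD reads methylated lysine 9 of histone H3, and the study addressed its preference for nucleosomes that also carry monomethylated lysine 4, a mark of enhancers and of the flanks of promoters. In the liver, surplus amino acids are broken down to fuel and glucose precursors. TAT, HPD, HGD and FAH act in this order in tyrosine degradation, with another enzyme between HGD and FAH. TDO2 opens the degradation of tryptophan, HAL that of histidine, SDS deaminates serine, and AGXT disposes of glyoxylate in peroxisomes. Inherited loss of FAH, HGD or AGXT causes tyrosinaemia, alkaptonuria or primary hyperoxaluria, and several of these genes are used as markers of mature hepatocytes.

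The promoters of 3 of the genes are shown, 1 with and 2 without a peak. The TSS of HAL lay inside a TTD peak, whereas SDS and HPD had no peak in the 5 kb window and the lowest cover within 100 kb. Each line gives 300 bases of RefSeq sequence on GRCh38.p14, from 250 bases before the TSS to 50 after it, 5′ to 3′ on the coding strand, which is the minus strand in all 3 cases. Capitals mark the CpG dinucleotides, the sites of DNA methylation. The HAL promoter is at chr12:95996295-95996594, that of SDS at chr12:113403838-113404137 and that of HPD at chr12:121858810-121859109.
HAL: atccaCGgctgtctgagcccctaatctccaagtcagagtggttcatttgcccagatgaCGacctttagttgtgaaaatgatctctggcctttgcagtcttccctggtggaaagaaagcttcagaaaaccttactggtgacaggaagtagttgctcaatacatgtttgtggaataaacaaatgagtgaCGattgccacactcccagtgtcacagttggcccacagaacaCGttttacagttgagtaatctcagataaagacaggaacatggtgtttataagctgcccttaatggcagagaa
SDS: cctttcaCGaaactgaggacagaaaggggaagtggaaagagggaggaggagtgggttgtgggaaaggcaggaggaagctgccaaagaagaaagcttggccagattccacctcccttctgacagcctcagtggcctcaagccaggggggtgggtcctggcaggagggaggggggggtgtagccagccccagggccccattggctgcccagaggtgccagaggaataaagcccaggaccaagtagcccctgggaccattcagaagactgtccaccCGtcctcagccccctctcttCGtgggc
HPD: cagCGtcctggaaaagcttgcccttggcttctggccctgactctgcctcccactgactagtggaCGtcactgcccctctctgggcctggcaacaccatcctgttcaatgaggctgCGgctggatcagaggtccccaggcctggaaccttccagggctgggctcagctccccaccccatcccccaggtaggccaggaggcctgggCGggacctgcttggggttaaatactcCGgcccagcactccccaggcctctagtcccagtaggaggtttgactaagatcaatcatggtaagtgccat
All 300 bases of the HAL promoter lay in a TTD peak and contained 4 CpGs. The SDS and HPD promoters held 3 and 5 CpGs, with 0 of their bases in a peak. Of the 8 genes, 6 had an entry in the RefSeq promoter table, and the other two were TAT and HGD. Of these 6 promoters, that of HAL alone had bases in a peak, and the share over all RefSeq promoters was not counted. The TSS lay inside a peak in 2.19% of all protein-coding genes. TAT, which has no entry, had 100% of the first 0.5 kb upstream of its TSS in a peak.

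TTD peaks were present at several of the genes but very unevenly. A peak lay in the gene body of 5 of the 8 genes (TAT, HGD, FAH, HAL and AGXT), and 34.2% of all protein-coding genes had one. Among the genes of the members' range of lengths, from 11.4 to 65.7 kb, this share was 29.6%. The 5 kb window around the TSS contained a peak in 4 of the 8 (TAT, HGD, FAH and HAL), compared with 16.9% of all genes. The TSS itself was inside a peak in 2 of the 8 (TAT and HAL), compared with 2.19% of all genes. The peaks near the TSS of HGD and HAL were narrower than the median of the list (2250 bp). With narrower peaks left out, 2 of the 8 genes (TAT and FAH) had a peak in the 5 kb window, compared with 7.31% of all genes, and the TSS of 1 of the 8 (TAT) was inside a peak, compared with 1.54%. Within 100 kb of the TSS, 7 of the 8 had a peak, the exception being SDS, but this was the case for 77.9% of all genes as well.

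The median cover of the 8 gene bodies was 11.5%, that of the 5 kb windows 6.89% and that of the 100 kb flanks 4.42%. Over all protein-coding genes the corresponding medians were 0, 0 and 2.00%. With 8 genes these medians rest on single loci. Without TAT they fell to 3.49%, 0 and 4.19% over the other 7 genes. The nearest peak was at a median distance of 3.69 kb from the TSS for the 8 genes and of 30.5 kb for all genes. Without the narrower peaks, it was 13.0 kb for the 8 genes and 88.4 kb for all genes.

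**Figure D1:**
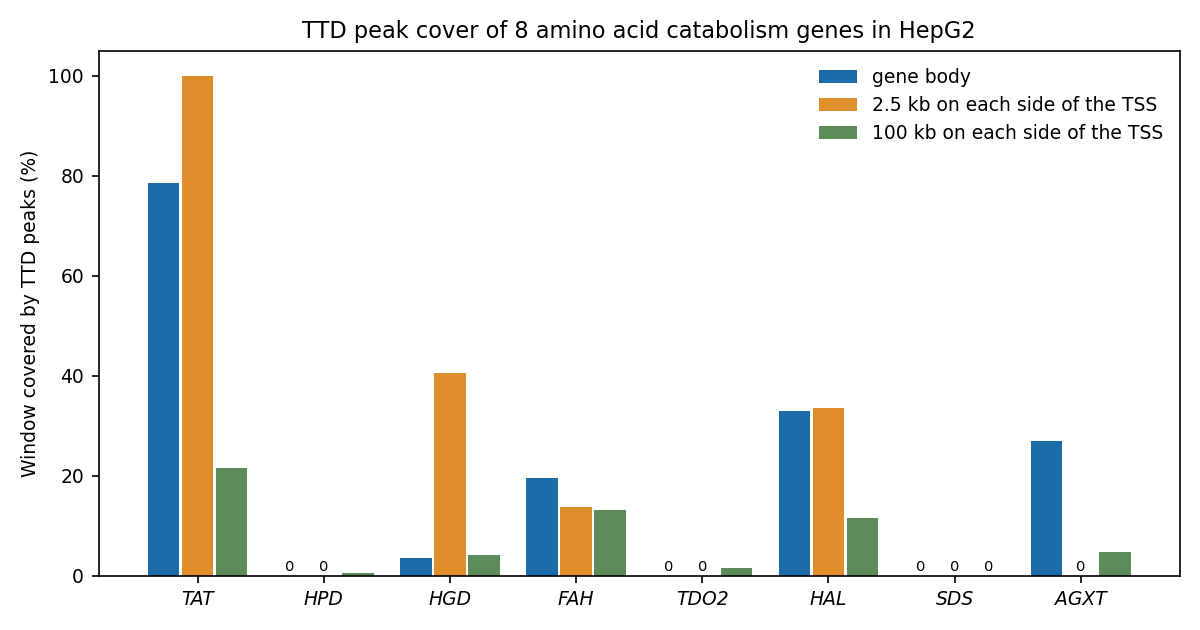
Percent of the gene body (blue), of the 5 kb around the TSS (orange) and of 100 kb on each side of the TSS (green) that lies in TTD peaks, for the 8 genes, from the pooled list without replicate error (0 marks a window without a peak). TAT reaches 78.5%, 100% and 21.6%, and SDS has 0 in all windows.

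Tyrosine degradation starts with TAT, tyrosine aminotransferase, a gene of 11.4 kb on chromosome 16 (71565660 to 71577092, minus strand). It was the most densely covered of the 8. A single TTD peak of 31750 bp (71568121 to 71599870) spanned its TSS, from 22778 bp upstream to 8971 bp downstream, and 12 of the 31569 peaks, itself included, were as wide. The 5 kb around the TSS were covered to 100%, which was reached by 50 protein-coding genes (0.25%). Of the gene body, 78.5% lay in this peak, and 0.314% of all genes were covered as much. Exons 1 to 11, all introns and all coding bases of the canonical transcript were inside it, whereas exon 12, which carries the 3′ untranslated region, was covered to 6.25%.

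The peak contained the TSS of no other gene. Its upstream part extended towards MARVELD3, a tight junction gene whose TSS was 49.1 kb away and had no peak in its 5 kb window, and neither had CHST4, a sulfotransferase gene 50.7 kb away on the other side. Of the 4 other protein-coding genes with a TSS within 100 kb, 2 had a peak in this window. Another peak of 6930 bp began 13.4 kb downstream of the TAT TSS, beyond the 3′ end of the gene. In all, 5 peaks lay within 100 kb and covered 21.6%, a level reached by 1.97% of all genes and by 3.38% of the 857 genes on chromosome 16. Chromosome 16 was covered to 4.34%, more than chromosomes 3, 4, 12 and 15 of the other genes (2.14% to 2.95%), and 21.4% of its genes had a peak in the 5 kb window. HepG2 is known to carry extra copies of some chromosomes. Copy number was not measured, and its part in these values was not tested.

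The next enzyme, 4-hydroxyphenylpyruvate dioxygenase, is encoded by HPD on chromosome 12 (121839527 to 121863596, minus strand). In contrast to TAT, no peak was found in its gene body of 24.1 kb or in its 5 kb window. The only peak within 100 kb was 1100 bp wide (121923961 to 121925060) and began 65.1 kb upstream of the TSS, past PSMD9, a gene for a proteasome assembly factor. It covered 0.55% of the flanks, and 71.7% of all genes were covered as much or more. Both flanking genes, PSMD9 and the histone methyltransferase gene SETD1B, and the other protein-coding genes with a TSS within 100 kb (5 in all) had no peak in their 5 kb windows. HPD was the only 1 of the 8 that the study lists among the genes with lower expression in HepG2 than in liver tissue, and the other 7 are not in that list. The list is limited to genes with a large change and a high level in either sample, so that a gene outside it may still have lower expression.

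HGD encodes homogentisate 1,2-dioxygenase, which acts after HPD, on chromosome 3 (120628172 to 120682269, minus strand). A peak of 2030 bp (120682571 to 120684600) lay just upstream of its TSS, from 332 to 2361 bp away. It filled 81.2% of the upstream side of the 5 kb window and 0 of the downstream side, 40.6% in all, and 3.97% of all genes were covered as much. A second peak of 1890 bp (120649831 to 120651720) was inside the gene, 30.5 kb downstream of the TSS, over exon 6 and the adjoining parts of introns 5 and 6. Because HGD is 54.1 kb long, this amounted to 3.49% of the gene body. The third peak within 100 kb (4460 bp, 120692201 to 120696660) was in the body of the neighbouring RABL3, a small GTPase gene, and the 3 peaks covered 4.19% of the flanks.

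FAH, which encodes fumarylacetoacetase, the last enzyme of tyrosine degradation, is on chromosome 15 (80152490 to 80186946, plus strand). Its peaks lay downstream of the TSS. The first (3240 bp, 80154811 to 80158050) began 1.81 kb into the gene and occupied 65.8% of intron 1. The second (3510 bp, 80160121 to 80163630) covered exons 4 and 5 and parts of introns 3 and 5. Together they made up 19.6% of the gene body, and 4.37% of all genes were covered as much, while the 5 kb window was covered to 13.8%, entirely on its downstream side. A further 5 peaks followed downstream of the gene, 4 of them in CTXND1. Within 100 kb, 7 peaks covered 24.1% of the downstream side and 2 peaks covered 2.15% of the upstream side. Both sides together came to 13.1%, reached by 6.37% of all genes and 2.33% of the 601 genes on chromosome 15.

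Hence these steps of one pathway had cover of the 5 kb window of 100% (TAT), 0 (HPD), 40.6% (HGD) and 13.8% (FAH). The peak was over the TSS of TAT, upstream of that of HGD and downstream of that of FAH. GSTZ1, which encodes the isomerase between HGD and FAH in the pathway, had no peak in its gene body or in its 5 kb window, although the nearest one was 2906 bp from its TSS.

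**Figure D2:**
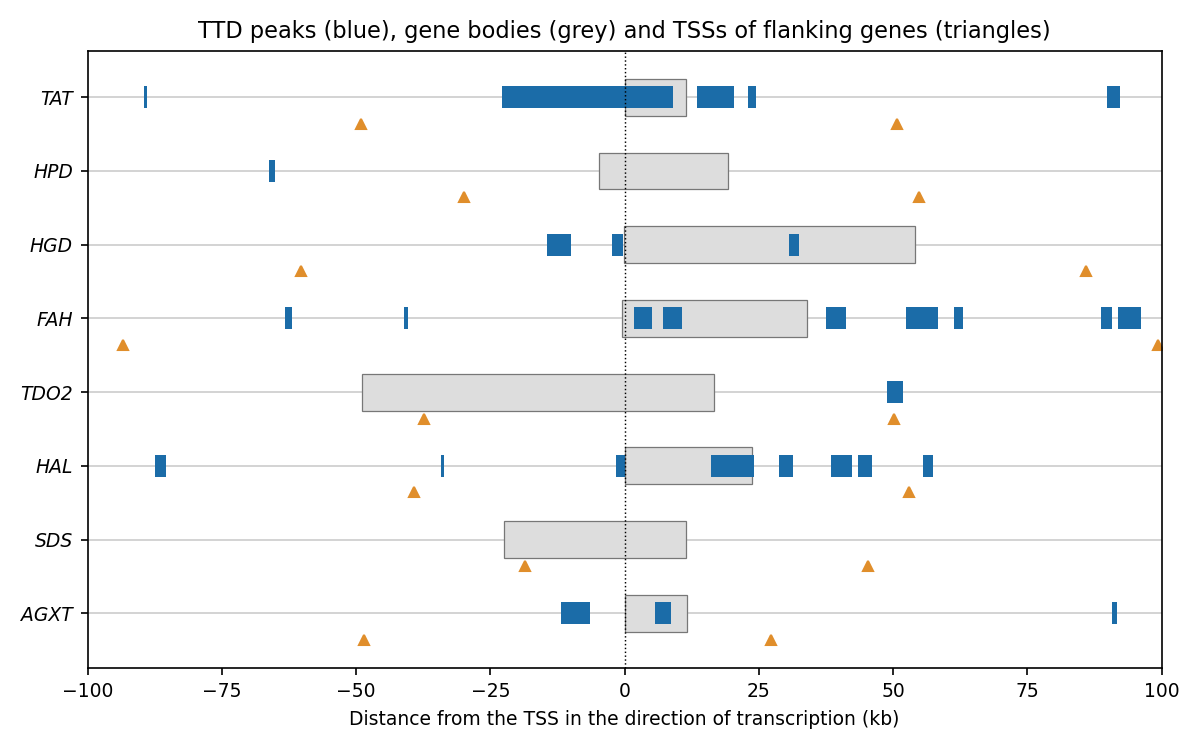
TTD peaks (blue) within 100 kb of the TSS of the 8 genes, drawn to scale as distance in kb from the TSS in the direction of transcription, with the gene record in grey and triangles at the TSSs of flanking protein-coding genes. TAT has 1 peak across the TSS, FAH has 7 of its 9 peaks and HAL 6 of its 8 downstream or reaching downstream of the TSS, and SDS has none.

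HAL encodes histidine ammonia-lyase, the first enzyme of histidine degradation, on chromosome 12 (95972662 to 95996365, minus strand). It was touched by peaks at both ends. A peak of 1680 bp (95996221 to 95997900) lay over the TSS, from 1.56 kb upstream to 123 bp downstream, and covered 33.6% of the 5 kb window and 46.4% of exon 1. The same peak contained the TSS of ENSG00000257878, a long non-coding RNA on the opposite strand. At the 3′ end of the gene, a peak of 8050 bp (95972281 to 95980330) covered exons 18 to 21 and most of intron 17, and 4.28% of all peaks were at least as wide. The gene body was covered to 33.0%, as much as in 1.84% of all genes and 1.16% of the 1038 genes on chromosome 12.

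Peaks continued from HAL into the neighbouring gene. AMDHD1, which encodes another enzyme of histidine degradation, lies tail to tail with HAL, and its TSS is 53.0 kb away. It had 3 peaks in its body (2600, 3940 and 2660 bp) that covered 36.2%, but none in its 5 kb window, where the nearest peak was 2601 bp from the TSS. On the other side of HAL, LTA4H, a gene of leukotriene synthesis, had 1 peak over 1.17% of its body. Within 100 kb of the HAL TSS there were 8 peaks, which covered 11.6% of the flanks, 19.1% on the downstream side and 4.11% on the upstream side.

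TDO2 encodes tryptophan 2,3-dioxygenase, the first and rate-limiting enzyme of the kynurenine pathway in the liver, and is on chromosome 4 with its TSS at 155903696 (plus strand). The gene record begins 48958 bp further upstream with the first exon of another transcript (155854738 to 155920406, 65.7 kb). No peak was found in any of it. The only peak within 100 kb (2920 bp, 155952581 to 155955500) began 48.9 kb downstream and contained the TSS of CTSO, the gene of a cathepsin, whose own 5 kb window was covered to 58.4%. The flanks of TDO2 were covered to 1.46%, and 56.9% of all genes reached this level.

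SDS encodes serine dehydratase and is on chromosome 12 with its TSS at 113403887 (minus strand, gene record 113392445 to 113426301). It was the only one of the 8 without a peak within 100 kb. Its nearest peak was 169 kb from the TSS, and 12.4% of all genes were as far or farther from a peak. The neighbouring paralog SDSL, with a TSS 18.5 kb away, was 187410 bp from its nearest peak, and PLBD2 on the other side had none in its body either.

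AGXT encodes alanine-glyoxylate aminotransferase, which keeps glyoxylate from being turned into oxalate, and is on chromosome 2 (240868824 to 240880502, plus strand). A peak of 3140 bp (240874401 to 240877540) lay within the gene, 5.58 to 8.72 kb downstream of the TSS, over exons 7 and 8 and the first 4.17% of exon 9. It covered 26.9% of the gene body, and 2.56% of all genes and 5.13% of the 1247 genes on chromosome 2 were covered as much. A wider peak (5370 bp, 240856941 to 240862310) was 6514 to 11883 bp upstream. Peaks thus stood on both sides of the TSS, but outside the 5 kb window, which was free. The flanks were covered to 4.64%. This was reached by 27.1% of all genes but by 56.3% of the genes on chromosome 2, the most densely covered of the chromosomes concerned (5.67%), on which 31.0% of the genes had a peak in the 5 kb window.

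Next, the position of the peaks relative to the TSS was compared in bands of distance. From 0.5 to 2.5 kb upstream, the mean cover was 30.7% for the 8 genes, 20.8% without TAT, and 6.96% for all genes. In the first 0.5 kb upstream it was 29.2%, 19.1% without TAT, and 4.13% for all genes. These upstream values came from TAT, HAL and HGD alone. In the first 0.5 kb downstream, TAT (100%) and HAL (24.6%) were covered and the other 6 genes were not. From 0.5 to 2.5 kb downstream the mean was 16.8%, 4.92% without TAT, and 4.44% for all genes. From 2.5 to 10 kb downstream it was 25.1%, 16.3% without TAT, and 4.13% for all genes, and TAT, FAH and AGXT alone were covered there. Farther upstream, from 25 to 50 kb, the 8 genes had a mean cover of 0.66% and all genes one of 3.99%. At the same distance downstream the order was the reverse, with 7.92% for the 8 genes, 9.05% without TAT, and 3.70% for all genes.

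**Figure D3:**
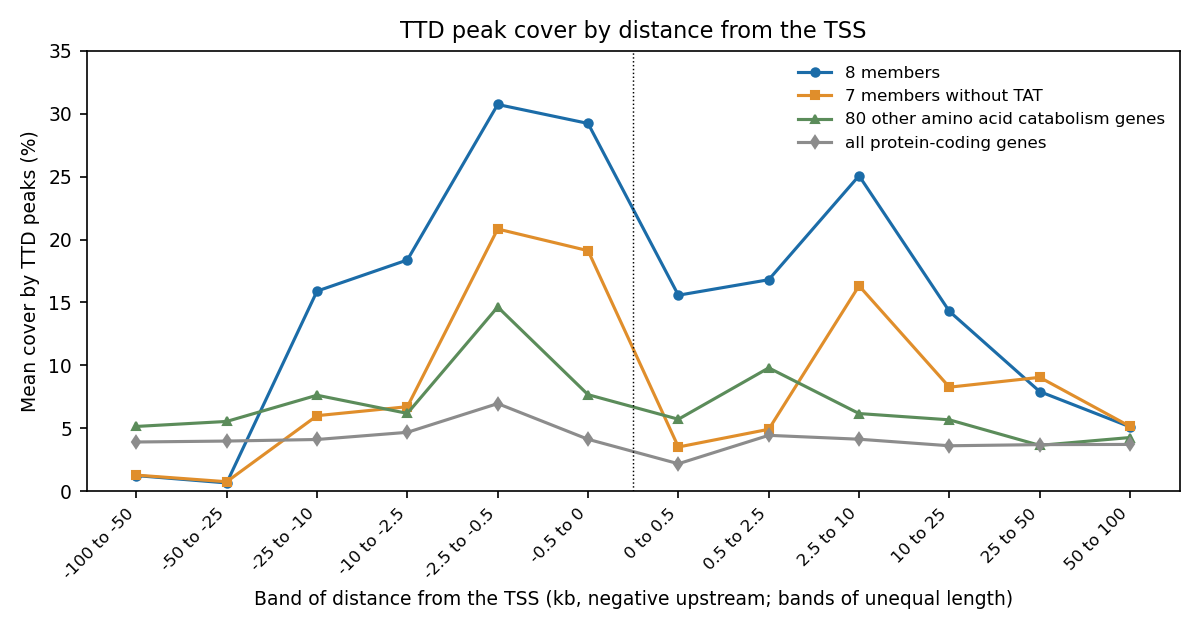
Mean cover by TTD peaks (%) in bands of distance from the TSS in kb, negative values upstream, for the 8 members, for 7 members without TAT, for 80 other amino acid catabolism genes and for all protein-coding genes, without error bars because the list is pooled. The members' mean is 30.7% at 0.5 to 2.5 kb upstream and 15.6% in the first 0.5 kb downstream, where it is 3.51% without TAT.

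The peaks at these genes differed in width. The 8 peaks over a gene body or a 5 kb window ranged from 1680 to 31750 bp with a median of 3190 bp, the widest being those over TAT (31750 bp) and the 3′ end of HAL (8050 bp), and the median of all peaks was 2250 bp. All 30 peaks within 100 kb had a median of 2525 bp. A wide peak overlaps a given window more readily than a narrow one. The widths of peaks over the same windows of all genes were not computed.

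The 1 kb around the TSS was poor in CpGs at most of the genes. The CpG observed/expected ratio was in the lowest quartile of all genes for 7 of the 8, from 0.0892 (TDO2) to 0.285 (AGXT), and FAH was the exception with 0.634 and 63 CpGs. Genes with similar ratios differed in cover, and no relation of ratio to cover was tested. TAT (0.119) and HGD (0.128), which had the largest cover of the 5 kb window, were close to TDO2, which had 0, and HAL (0.225) was close to SDS (0.206), which also had 0. Among all genes of the lowest quartile, 14.1% had a peak in the 5 kb window, compared with 3 of these 7 members, and 5.99% had the TSS inside a peak, compared with 2 of the 7.

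The 6 RefSeq promoters were searched on both strands for short motifs of general and liver-enriched factors. The TATA box letters TATAAA were in those of TDO2 and HAL (9.42% of 15365 promoters), in HAL on the antisense strand at base 23 after the TSS. CCAAT was in those of TDO2, SDS and AGXT (36.6% of promoters). The letters TGTTTAC and TATTTAC (FOXA), GTTAAT (part of the HNF1 site), CAAAGTCC (part of the HNF4 site) and TTGCGCAA (C/EBP) were in none of the 6 windows, and they were in 2.49%, 1.71%, 4.97%, 1.09% and 0.195% of all promoters. None of these motifs contains another, and TTGCGCAA contains CG.

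Finally, 80 other genes of amino acid catabolism were examined in 10 groups by pathway. Of these, 22 (27.5%) had a peak in the 5 kb window, compared with 16.9% of all genes, and 5 had the TSS inside a peak, compared with 2.19%. A peak lay within 100 kb of 72 (90.0%), compared with 77.9% of all genes. In the gene body 30 (37.5%) had a peak, a share close to the 34.2% of all genes. The median cover within 100 kb was 3.85%, between the 4.42% of the 8 members and the 2.00% of all genes. The nearest peak was within 10 kb of the TSS for 31 of the 80 genes, 5 of the 8 members and 29.9% of all genes.

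Among the other genes of the phenylalanine and tyrosine group, PCBD1, which acts in the recycling of tetrahydrobiopterin, had 26.8% of its 5 kb window covered. QDPR, which acts in the same recycling, and PCBD2 had no peak there. In the kynurenine group, the windows of KYNU (kynureninase, 84.0%) and HAAO (35.2%) were covered and those of the remaining 8 of 10 genes were not, and neither was that of TDO2. None of the 4 other histidine genes had a peak in the window, in contrast to HAL, but 3 of them (UROC1, AMDHD1 and HDC) had peaks in the gene body. In the serine, glycine and threonine group, which includes the family of SDS, 3 of 12 had a peak in the window: PIPOX (94.0%), which oxidises sarcosine and pipecolate, and the glycine cleavage genes GCSH (45.4%) and DLD (38.2%).

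AGXT2 (75.2%), a mitochondrial aminotransferase that also uses glyoxylate, and HOGA1 (38.4%) of hydroxyproline degradation were the 2 of 6 in the glyoxylate group, whereas the glycolate oxidase gene HAO1 and GRHPR had none, like AGXT. In the methionine and cysteine group, MAT1A, the S-adenosylmethionine synthetase of adult liver, was covered to 87.8%, and 2 of 10 genes had a peak. The largest share was that of the branched-chain group, with 8 of 16: MMUT (53.0%), HIBCH (44.4%), HIBADH (35.1%), DBT (31.3%), MCCC2 (29.4%), PCCB (26.4%), PCCA (22.6%) and 1 more. The share over all genes was 16.9%. In this group 0 of 16 had the TSS inside a peak, and the median cover within 100 kb was 3.80%, compared with 3.85% for all 80. None of the 4 lysine genes had a peak in the 5 kb window, 1 of 7 in the proline and glutamate group did (OAT, 18.6%), and 2 of 6 among the genes of alanine and aspartate (GPT2, 21.8%, and ASPA, 15.3%). The cover of TAT (100%) was above that of all 80, while HGD, HAL and FAH were among the values of the 22.

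**Figure D4:**
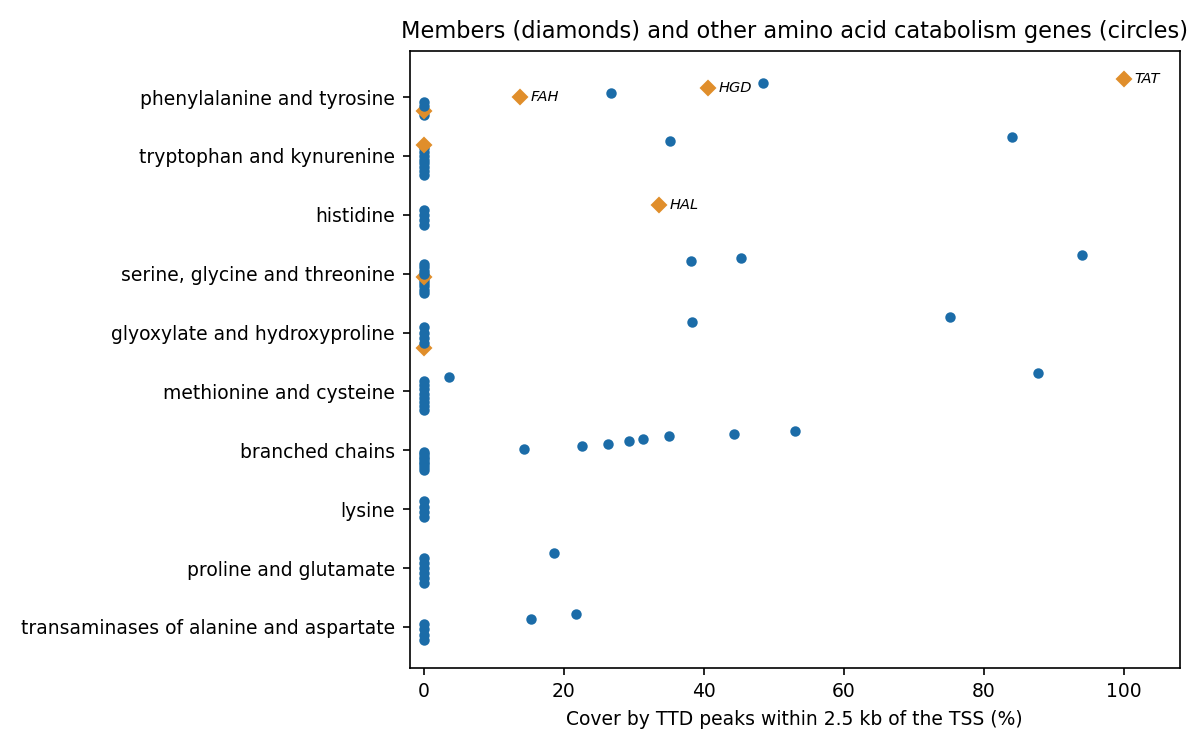
Cover by TTD peaks (%) of the 5 kb around the TSS for the 8 members (orange diamonds) and 80 other amino acid catabolism genes (blue circles), 1 row for each pathway and 1 point for each gene, spread vertically only for legibility. Most points are at 0, 22 of the 80 circles are above it, and TAT at 100% is to the right of every circle.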

How the data were processed

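TTD CIDOP, H3K9me2 ChIP and input libraries of HepG2 were sequenced in 2 biological replicates each. According to the submitters' notes and the study's methods, reads were trimmed with Trimmomatic (0.38), checked with FastQC (0.72), mapped to hg38 with HISAT2 (2.2.1) and turned into RPKM coverage with deepTools (3.3.2). Broad peaks were called with MACS2 (2.1.1) on the mean of both TTD replicates. After removal of blacklisted regions, they were checked by hand for artifacts and for large false positives. The authors deposited 1 list of 31569 positions and widths without scores, so neither the reads behind a peak nor its spread between replicates can be read from it. Hand curation can change single peaks, and the 31750 bp peak over TAT was among the widest that remained in the list. The signal tracks were not analysed here.

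Peaks were intersected with GENCODE release 44 on hg38 in Python 3.11.15 (an overlap of 1 bp counts) and figures were drawn with matplotlib 3.10.9. The TSS is the 5′ end of the Ensembl canonical transcript. The interval code was tested on 50 simulated sets. CpG ratios were computed from 1 kb of hg38 around each TSS. Promoters are RefSeq sequences on GRCh38.p14, matched by symbol for 6 of the 8 genes. The members, the pathway list of 80 genes and the motifs were chosen with earlier results of these data known. Named are the 8 genes, the protein-coding genes on either side, pathway genes within 100 kb, genes with a TSS in a member's peak, and the 20 pathway genes with the largest cover of the 5 kb window, of which 1 is not reported here. PCBD2, QDPR, GSTZ1, UROC1, HDC, HAO1 and GRHPR were added after their values were seen. The expression ratios of the study's supplement were not used, only its list of gene names.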

Additional observations from a re-analysis of the deposited data

How the results depend on the processing

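The list holds no score, so peak width was the only means of a stricter selection. With only those peaks that were 2250 bp (the median) or wider, 2 of the 8 genes (TAT and FAH) kept a peak in the 5 kb window instead of 4, the median cover of this window fell from 6.89% to 0, and 11 of the 80 other genes had a peak there instead of 22. In a comparison added after seeing the data, these wider peaks left 1 of the 8 with the TSS inside a peak instead of 2, and moved the median distance to the nearest peak from 3.69 to 13.0 kb. The median cover of the 5 kb window was 1.80% with the TSS at the 5′ end of the gene record, 19.6% over all annotated transcript TSSs, and 0 with 1 kb on each side of the TSS. With all transcript TSSs, AGXT also had a peak in the window (25.3%), which made 5 of 8, compared with 31 of the 80 other genes (22 with 1 TSS for each gene) and 24.9% of all genes (16.9%). The median cover of the flanks was 8.44% for 50 kb on each side and 4.42% for 100 kb. The counts of members with a peak in the gene body and within 100 kb, the median cover of the gene body, and the counts of the 80 other genes in these windows stayed within 1.5 times the reported value under the alternatives run for them. The widths of the peaks, the bands of distance and the CpG and motif counts were not recomputed. No paired analysis was made, because only the list that the authors called on the mean of both replicates was used. For the same reason no replicate was left out. The depth behind a peak is not given in the list.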
